A study of Homo sapiens with 6 samples.

Results

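The genes described here are 9 components and regulators of the complement system, C1R, C1S, C3, CFB, CFI, SERPING1, CD46, CD55 and CD59, taken by symbol from the 59653 genes of the deposited count table. All 9 were present, and all 9 were among the 19008 genes that passed the minimum for testing, although CFI passed it in only 1 siControl and 2 siPVT1 libraries. The study asked how lowering PVT1, a long non-coding RNA, alters gene expression in SK-OV3, an established human ovarian cancer cell line labelled as wildtype. RNA was sequenced from 3 siControl libraries, made from cells given a pool of non-targeting siRNAs, and 3 siPVT1 libraries, made from cells given a pool of siRNAs against PVT1, in each case 48 h after transfection with 50 nM siRNA. A single pool was used against PVT1, so effects of the pool itself and effects of lowering PVT1 cannot be told apart. The labels do not say whether the replicates came from separate cultures, so the p-values measure the spread between these libraries, which may be technical. As RNA came from whole cultures, fewer cells of a type and less RNA per cell cannot be told apart.

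Complement is a cascade of proteases and binding proteins that tags cells for removal and can end in a pore in their membrane. In the classical pathway the proteases encoded by C1R and C1S act within the first complex, and in the alternative pathway the product of CFB joins a fragment of C3 to form an enzyme that cleaves more C3, the protein on which all pathways converge. Most circulating complement comes from the liver, but many tumour cells make components themselves, and nucleated cells hold the cascade off their own surface with membrane regulators such as CD46, CD55 and CD59. Inflammatory cytokines and interferons are well-known inducers of several of these genes.

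Library totals ranged from 28383171 to 35059576 counts. PVT1, the targeted gene, gave 3298, 4090.5 and 3377 normalized counts in the siControl libraries and 2349.7, 2111 and 2062.5 in the siPVT1 libraries, here and below in the order of replicates 1 to 3, a log2 fold change of −0.72 (SE, the standard error, 0.097; adjusted p = 3.42e-04). Normalized counts are counts scaled for depth and composition, and adjusted p-values come from edgeR's quasi-likelihood test across all 19008 genes. Epithelial markers were present, with 10 of 10 tested and a summed level of 27145 to 30466 normalized counts in siControl and 33047 to 36648 in siPVT1, of which 1 was called higher and 1 lower. Among leukocyte markers, PTPRC and CD3E had at most 3 counts in every library, while LYZ, CD14, CD68, CSF1R and ITGAM had enough counts to be tested. For this list (5 of 8 tested, 2 lower, 0 higher) the summed level was 820.3 to 1006 in siControl and 639.9 to 942.1 in siPVT1. Among hepatocyte markers, TTR and CYP3A4 had at most 3 counts in every library, while SERPINA1 and TF were tested. This list (2 of 9 tested, neither called) summed to 390.7 to 400.9 and 577.9 to 772.8. Fibroblast and mesothelial markers (5 of 9 tested, 3 higher, 1 lower, with COL3A1, DCN and UPK3B at no more than 3 counts) summed to between 347.5 and 361.2 in siControl and between 1024 and 1206 in siPVT1, and the 4 endothelial markers, all higher, to 2066.5 to 2110 and 8665 to 10932. The part that these marker genes have in the results below was not tested.

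Of the 9 complement genes, 5 were called higher in siPVT1 and 0 lower, at an adjusted p under 0.05 and a fold change of at least 2. Over all genes tested, 11.8% were called higher and 9.64% lower by that rule. By the adjusted p alone, 6 complement genes were higher and 0 lower, against 29.5% and 28.4% of all genes. All siPVT1 libraries lay above all siControl libraries for 6 of the 9 and below for 0, against 33.2% and 32.3% of all genes. The median log2 fold change was 1.20 over the 9 genes and 0.001 over all genes tested. By role, 3 of the 4 components rose (C1R, C3, CFB), as did 1 of the 3 membrane regulators (CD46) by both thresholds. The call for SERPING1, 1 of the 2 soluble regulators, was lost under other settings described below, while C1S, CFI and CD55 passed neither threshold.

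**Figure D1:**
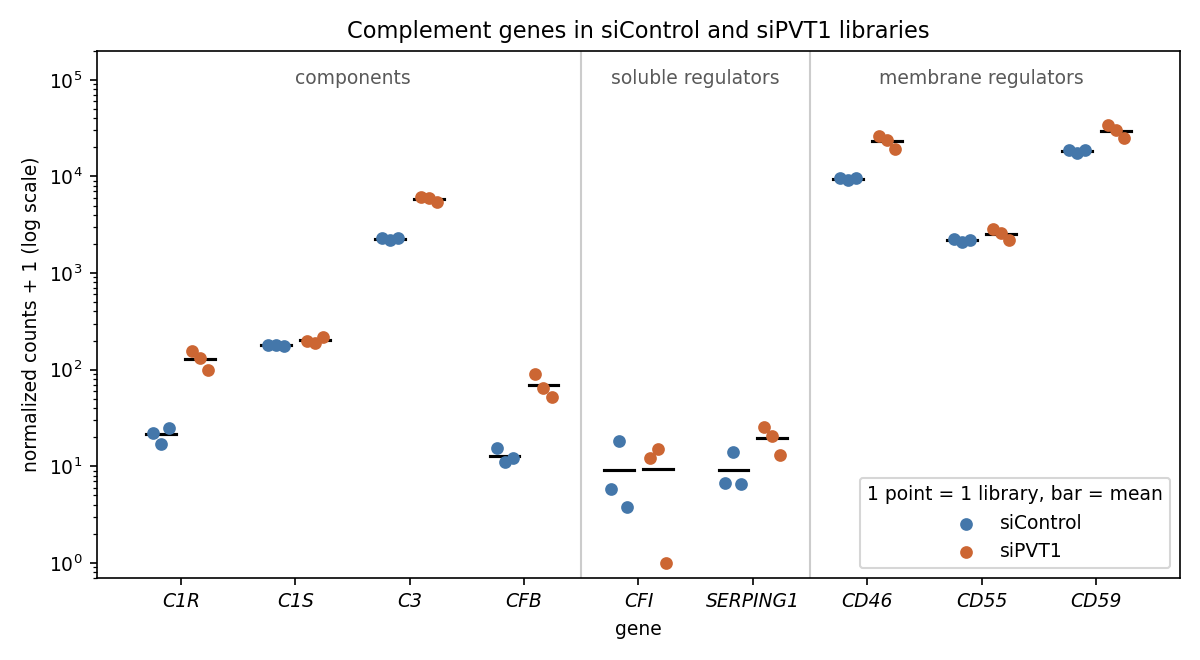
Normalized counts plus 1 of the 9 complement genes on a log scale, with 1 point for each library in the order of replicates 1 to 3 and a bar at the group mean. The siPVT1 points of C1R, C3, CFB, CD46 and CD59 all lie above the siControl points, while those of CFI, SERPING1 and CD55 overlap them.

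Promoter sequences are shown here because CFB and C1R had the largest rises of the 9 genes, and because CD46 and CD55 are on the same chromosome and differed in their change. RefSeq windows (GRCh38.p14), running from 250 bases before to 50 bases after an annotated start, were found for 6 of the 9 genes (11 windows). C1S, C3 and SERPING1 had no entry. Each window was searched on both strands for 3 motifs, the gamma-activated site bound by STAT dimers (TTCNNNGAA, in 7.66% of all 35116 promoter windows), the interferon-stimulated response element bound by IRF factors (TTTCNNTTTC, in 3.57%) and an NF-kB motif (GGGNNTTTCC, in 1.91%). Matches are in capitals. In CFB (chr6:31945845-31946144, plus strand) an interferon-stimulated response element lay 140 to 131 bases and a gamma-activated site 92 to 84 bases before the start. In C1R, the first of 2 windows (chr12:7091844-7092143, minus strand) held a gamma-activated site 86 to 78 bases before the start, and the second (chr12:7092396-7092695) held none of the 3 motifs. The windows of CD46 (chr1:207751788-207752087, plus strand) and CD55 (chr1:207321428-207321727, plus strand) held none either.
CFB: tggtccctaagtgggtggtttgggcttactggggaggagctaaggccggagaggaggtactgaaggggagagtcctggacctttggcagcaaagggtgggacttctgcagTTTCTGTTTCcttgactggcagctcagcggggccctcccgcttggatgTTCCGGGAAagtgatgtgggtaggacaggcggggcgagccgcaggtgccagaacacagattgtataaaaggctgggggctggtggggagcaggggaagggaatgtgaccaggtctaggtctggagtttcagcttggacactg
C1R: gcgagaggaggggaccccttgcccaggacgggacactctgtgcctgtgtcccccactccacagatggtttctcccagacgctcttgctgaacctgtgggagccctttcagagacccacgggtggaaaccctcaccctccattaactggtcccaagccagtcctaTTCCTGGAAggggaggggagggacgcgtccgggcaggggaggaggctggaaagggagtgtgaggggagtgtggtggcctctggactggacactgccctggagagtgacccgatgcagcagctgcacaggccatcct
CD46: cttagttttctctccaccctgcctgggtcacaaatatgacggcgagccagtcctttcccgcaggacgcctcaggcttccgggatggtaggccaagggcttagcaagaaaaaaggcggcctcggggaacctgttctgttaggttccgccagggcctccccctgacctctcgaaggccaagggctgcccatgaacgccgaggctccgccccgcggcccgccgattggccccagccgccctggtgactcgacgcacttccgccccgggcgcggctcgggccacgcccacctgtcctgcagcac
CD55: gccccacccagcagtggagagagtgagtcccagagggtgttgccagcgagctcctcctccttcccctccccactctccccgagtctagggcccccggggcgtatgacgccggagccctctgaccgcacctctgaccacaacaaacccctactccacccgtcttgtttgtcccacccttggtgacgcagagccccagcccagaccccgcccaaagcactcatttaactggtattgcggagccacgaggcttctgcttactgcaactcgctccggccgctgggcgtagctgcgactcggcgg
Of the windows not printed, those of CFI and the second of CD46 had no match, and 2 overlapping windows of CD59 shared a single gamma-activated site. A match describes the letters and is not a measured binding site.

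C1R, which encodes the protease that activates the C1S product, showed the largest rise of the components. It lies on chromosome 12 from 7080214 to 7092540 on the minus strand (GRCh38). The siControl libraries gave 20.95, 16.2 and 24.0 normalized counts and the siPVT1 libraries 155.9, 131.1 and 98.7. The lowest siPVT1 library was well above the highest siControl library. The mean rose from 20.4 ± 3.96 (SD, n = 3) to 128.6 ± 28.7 (SD, n = 3), a 6.24-fold rise with a 95% interval from 4.25 to 9.16 (log2 fold change 2.64, SE 0.240, adjusted p = 4.39e-05). C1R shares 672 of its 5803 annotated exonic bases with C1RL, a neighbouring protease gene on the same strand, so the division of reads between them is uncertain. C1RL itself gave a mean of 235.3 ± 27.5 in siControl and 371.8 ± 43.2 in siPVT1 (SD, n = 3 each), and its log2 fold change of 0.66 (adjusted p = 0.0024) did not reach 2-fold.

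C1S, the partner protease, which cleaves the next components of the classical pathway, lies near C1R on chromosome 12 (6988259 to 7071032, plus strand) and was not called. Its normalized counts were 177.1, 179.8 and 176.4 in siControl and 198.2, 189.0 and 215.2 in siPVT1. The siPVT1 libraries were all higher on this scale, but the counts as deposited, 186, 178 and 191 against 178, 173 and 229, overlapped. The log2 fold change was 0.18 (SE 0.098, adjusted p = 0.156), with an interval of the fold from 0.967 to 1.32. The ratio of C1R to C1S per transcript length within a library was 0.1275, 0.0969 and 0.147 in siControl and 0.848, 0.748 and 0.494 in siPVT1, 5.57-fold higher. These groups did not overlap, and a two-sided exact permutation test gave p = 0.1, the smallest that 3 libraries against 3 allow (adjusted p = 0.12 over 6 ratios).

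C3, the central component, was the most abundant component in both groups per length. It lies on chromosome 19 from 6677704 to 6730562 on the minus strand. Counts after normalization were 2291, 2196 and 2285 in siControl against 6108, 5974.5 and 5459 in siPVT1. The libraries of each group lay close together and far from those of the other. C3 rose 2.59-fold (95% interval 2.34 to 2.87), from 2258 ± 53.2 to 5847 ± 343 (SD, n = 3 each), with a log2 fold change of 1.37 (SE 0.064, adjusted p = 1.99e-06).

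CFB, which encodes factor B, the protease of the alternative pathway, rose from low levels. It lies on chromosome 6 from 31945650 to 31952086 on the plus strand. There were 14.3, 10.1 and 11.1 normalized counts in siControl and 89.1, 63.4 and 51.7 in siPVT1, with no overlap. The rise was 5.68-fold (95% interval 3.57 to 9.05; log2 fold change 2.51, SE 0.292, adjusted p = 1.61e-04), from 11.8 ± 2.19 to 68.05 ± 19.1 (SD, n = 3 each). The siControl mean rests on 10 to 15 counts a library. The ratio of CFB to C3 per length was 0.0111 ± 0.00186 in siControl and 0.0244 ± 0.00568 in siPVT1 (SD, n = 3 each), 2.19-fold higher without overlap (two-sided exact permutation test, p = 0.1, adjusted p = 0.12). CFB shares 24 exonic bases with C2, the homologous gene beside it, which had at most 5 counts in any library. CFB also shares 2249 of its 5312 exonic bases with a protein-coding gene on the same strand, annotated without a symbol. Whether that gene was in the annotation used for counting was not checked, so the division of reads between it and CFB is uncertain.

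**Figure D2:**
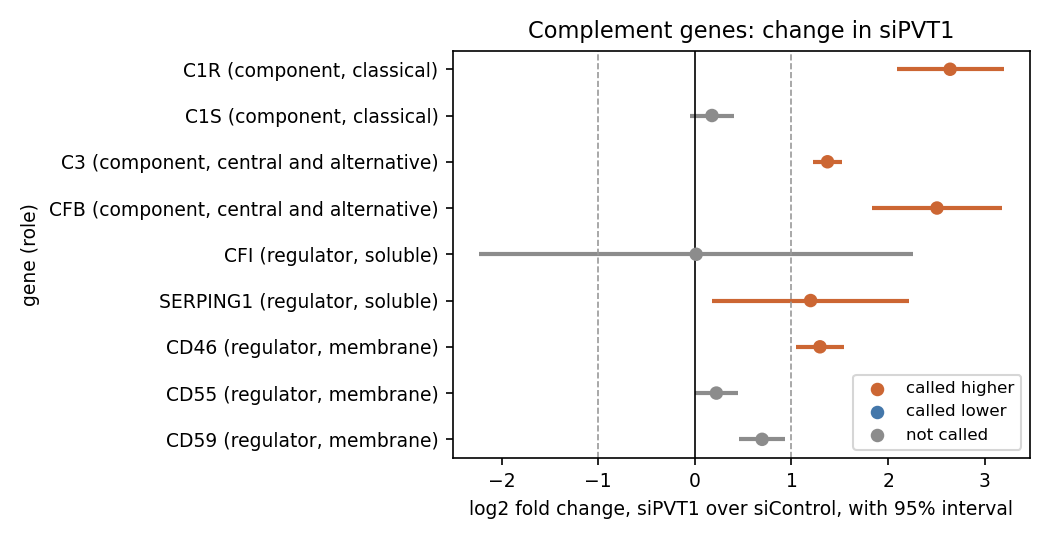
Log2 fold changes (siPVT1 over siControl, x axis) of the 9 complement genes with 95% intervals, with dashed lines at a 2-fold change either way and colour for the call at both thresholds. C1R at 2.64 and CFB at 2.51 lie farthest to the right, and the interval of CFI spans −2.23 to 2.26.

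SERPING1 encodes C1 inhibitor, the serpin that inactivates the proteases made by C1R and C1S, and lies on chromosome 11 from 57597387 to 57619171 on the plus strand. It had 5.71, 13.1 and 5.54 normalized counts in siControl and 24.5, 19.7 and 12.2 in siPVT1, from 6 to 22 counts a library. The groups overlapped, since siControl replicate 2 was above siPVT1 replicate 3. The log2 fold change of 1.20 (SE 0.443, adjusted p = 0.0464) passed both thresholds narrowly. The adjusted p was 0.0905 in DESeq2, 0.0511 with DESeq2's size factors in edgeR and 0.0796 with scaling by the total count, and the call was also lost without siControl replicate 1 or 3 or siPVT1 replicate 1 or 2. Without siControl replicate 2 the log2 fold change was 1.71 (adjusted p = 0.0185).

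CFI encodes factor I, the protease that cuts C3b and C4b with the help of cofactors such as CD46, and lies on chromosome 4 from 109731008 to 109802150 on the minus strand. Only 5, 17 and 3 counts were found in siControl and 10, 13 and 0 in siPVT1 (4.76, 17.2 and 2.77 against 11.1, 14.2 and 0 normalized counts). The groups overlapped fully, and the 0 among 35059576 counts allows up to 3. The log2 fold change was 0.013 (SE 0.976, adjusted p = 0.993), with an interval of the fold from 0.213 to 4.79, so a change within that range was not detectable at this depth.

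The highest siControl values of SERPING1 and CFI were both in siControl replicate 2. That library also stood apart in other RNAs, with 793 counts of 5.8S rRNA against 34 and 28 in siControl replicates 1 and 3, and 248.5 normalized counts of the leukocyte marker LYZ against 18.1 and 4.62. In siPVT1 the 5.8S rRNA counts were 48, 171 and 122, and LYZ stood at 15.6, 86.3 and 12.2 normalized counts. For both RNAs replicate 2 was thus the highest library in siPVT1 as well as in siControl. CFI was also highest in siPVT1 replicate 2, whereas SERPING1 was highest in siPVT1 replicate 1. The part of this in the results was not tested. Without siControl replicate 2, 5 complement genes were called higher and 0 lower, against 2198 and 1425 of all 18302 genes then tested. These 5 include SERPING1, whose call was lost under other settings given above.

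CD46 encodes the membrane cofactor that serves factor I, and was the most abundant of the 9 genes per length and the membrane regulator with the largest rise. It lies on chromosome 1 from 207752037 to 207795513 on the plus strand. Normalized counts reached 9529, 9105 and 9577 in siControl and 26371, 23559 and 19288.5 in siPVT1. Each siPVT1 library was at least 2-fold above each siControl library. From means of 9404 ± 259.5 and 23073 ± 3566 (SD, n = 3 each), the rise was 2.45-fold (95% interval 2.07 to 2.91; log2 fold change 1.29, SE 0.108, adjusted p = 2.77e-05). On the opposite strand, the microRNA host gene MIR29B2CHG covers 797 of the 15505 exonic bases of CD46. Its own mean level, 88.4 normalized counts in siControl and 214.5 in siPVT1, was far below that of CD46, and the strand setting of the counting is not given in the sources used here.

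CD55, decay-accelerating factor, which takes apart the enzymes that cleave C3, lies upstream on the same strand of chromosome 1 (207321519 to 207386804) and was not called. Normalized counts were 2254, 2076 and 2187 in siControl and 2846, 2577.5 and 2184 in siPVT1. Replicate 3 of siPVT1 fell within the siControl range and the other two siPVT1 libraries lay above it. The log2 fold change was 0.22 (SE 0.097, adjusted p = 0.0813), with an interval of the fold from 0.999 to 1.36. Without siPVT1 replicate 3 it was 0.30, with an adjusted p of 8.36e-04, still under the 2-fold threshold. With any other library left out it lay between 0.117 and 0.244, with adjusted p between 0.130 and 0.243.

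CD59, which stops the membrane pore from assembling, lies on chromosome 11 from 33703010 to 33736479 on the minus strand and rose by less than CD46. It gave 18760, 17591 and 18937 normalized counts in siControl against 34035, 30254 and 25269 in siPVT1. The groups did not overlap. From 18430 ± 731 to 29853 ± 4397 (SD, n = 3 each), CD59 rose 1.62-fold (95% interval 1.37 to 1.91; log2 fold change 0.70, SE 0.104, adjusted p = 6.07e-04), past the threshold for the adjusted p and below the 2-fold threshold.

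Levels of the membrane regulators were next compared with each other within each library. Per length, CD46 was 3.30, 3.42 and 3.42 times the level of CD55 in siControl and 7.23, 7.13 and 6.89 times in siPVT1. The ratio of CD46 to CD59 was 1.16 ± 0.0144 in siControl and 1.76 ± 0.0182 in siPVT1 (SD, n = 3 each), and that of CD59 to CD55 was 2.91 ± 0.0574 and 4.03 ± 0.0662. None of the 3 ratios overlapped between the groups, and each had the smallest possible two-sided exact permutation p of 0.1 (adjusted p = 0.12). By contrast, the ratio of C3 to CD46 was 0.152 ± 8.45e-04 in siControl and 0.1625 ± 0.0164 in siPVT1 (SD, n = 3 each), with overlapping groups and an exact permutation p of 0.4 (adjusted p = 0.4). Relative to the mean, the spread between the siPVT1 libraries was smaller in the ratio of CD46 to CD55 than in either gene's own counts, in which replicates 1, 2 and 3 stood in the same order.

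**Figure D3:**
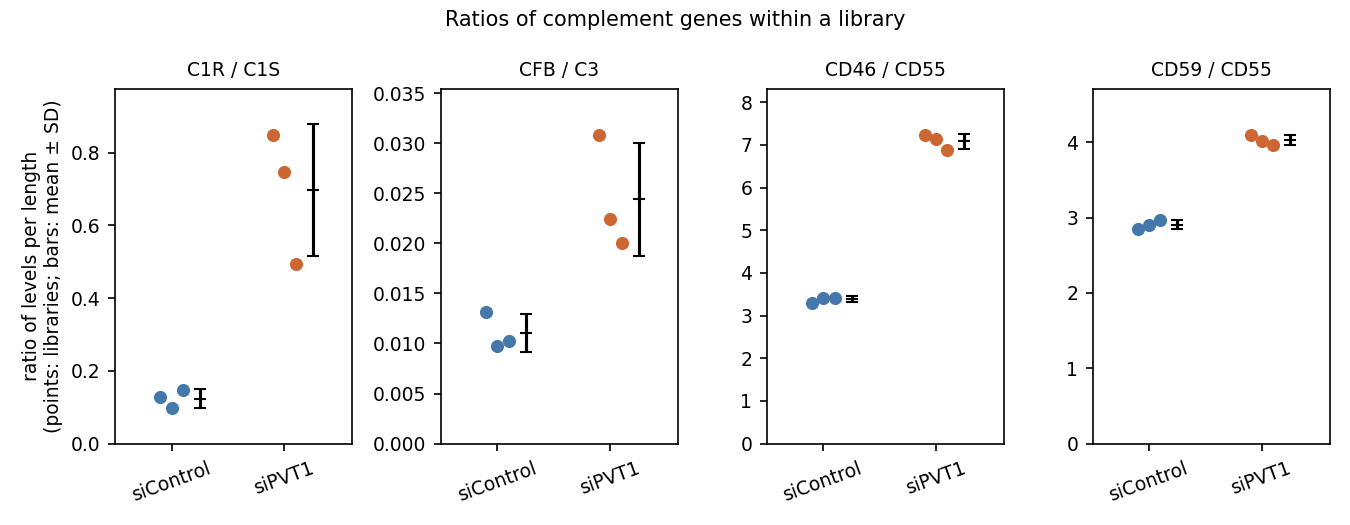
Ratios of levels per transcript length within each library (y axes from 0, a separate scale in each panel) for C1R to C1S, CFB to C3, CD46 to CD55 and CD59 to CD55, with 1 point per library and bars for the mean ± SD of 3 libraries. In each panel the siPVT1 points lie above the siControl points, with mean ratios of CD46 to CD55 of 7.08 and 3.38.

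Levels between genes were compared as normalized counts per length, that is per kilobase of the gene's canonical transcript and scaled to library size. Counts cover all transcripts of a gene but only the canonical length was used, so the order depends on that choice. The canonical lengths of CD59 and CD46 are 7563 and 3320 bases. Before division by length, CD59 was above CD46, at 18430 against 9404 in siControl and 29853 against 23073 in siPVT1. In siControl the order was CD46 (91.0 ± 2.51), CD59 (78.3 ± 3.11), CD55 (26.95 ± 1.11), C3 (13.9 ± 0.327), C1S (2.13 ± 0.0215), C1R (0.263 ± 0.0511), CFB (0.153 ± 0.0284), SERPING1 (0.143 ± 0.0761) and CFI (0.134 ± 0.127; SD, n = 3 for each). Neighbours in this order did not overlap between libraries down to CFB, whereas the ranges of CFB, SERPING1 and CFI overlapped. In siPVT1 the levels were 223 ± 34.5 for CD46, 127 ± 18.7 for CD59, 35.9 ± 2.10 for C3, 31.45 ± 4.13 for CD55, 2.41 ± 0.159 for C1S, 1.66 ± 0.371 for C1R, 0.883 ± 0.248 for CFB, 0.330 ± 0.109 for SERPING1 and 0.137 ± 0.121 for CFI. C3 had moved past CD55, from which its libraries were not separate, and SERPING1 and CFI overlapped. Among 15955 tested genes with a known length, CD46 went from percentile 96.3 in siControl to 98.5 in siPVT1, CD59 from 95.5 to 97.1, CD55 from 85.4 to 86.85, C3 from 71.9 to 88.7, C1R from 13.7 to 30.9 and CFB from 9 to 23.8. C1R and CFB thus lay in the lower part of these genes even after their rise. Tested genes without a length under the same name were left out, and the percentiles depend on that.

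Among the 5 complement genes called higher, siPVT1 replicate 3 was the lowest siPVT1 library for all 5. The same library was the lowest for 66.9% of the 2248 genes called higher in the whole table, so this order was common in these libraries. With any 1 of the 6 libraries left out, the log2 fold changes lay between 2.47 and 2.79 for C1R, 1.33 and 1.40 for C3, 2.25 and 2.66 for CFB and 1.17 and 1.39 for CD46, and each kept its call.

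The genes most like C3 over the 6 libraries, by Pearson correlation of log2(normalized counts + 1), were SRGAP2C (r = 0.99993), DCBLD2 (r = 0.99987) and MAP4K2 (r = 0.99986), which encode a member of a gene family with near-identical copies, a membrane protein and a kinase. Of 19007 other tested genes, 1120 had r over 0.99, among them C1R (0.9925) and CD46 (0.991). The points share the difference between the groups, so these values describe a common step between siControl and siPVT1.

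Outside the 9 genes, complement moved in both directions. Of 49 other complement genes listed, 25 had at most 3 counts in every library, including the 3 chains of C1q (C1QA, C1QB, C1QC), which were at 0 in all 6 libraries, and 18 could be tested. Of these, 5 were called higher, 3 lower and 10 neither, with a median log2 fold change of 0.37. The shares of all genes tested were 11.8% called higher and 9.64% lower. The list was chosen with earlier results of these data known. In the alternative pathway CFD, the protease that cleaves factor B, had 6.10 ± 1.20 normalized counts in siControl and 17.25 ± 2.81 in siPVT1 (SD, n = 3 each; log2 fold change 1.49, SE 0.328, adjusted p = 0.00486), from 5 to 21 counts a library. CLU, clusterin, a soluble inhibitor of pore assembly, fell from 1163 ± 14.0 to 295 ± 40.3 (SD, n = 3 each; log2 fold change −1.98, SE 0.102, adjusted p = 2.99e-06), in contrast to CD59, which acts at the same step.

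The genes listed here as complement receptors, not all of which bind complement fragments, were split. ITGAX, an integrin chain that binds a fragment of C3, rose from 273 ± 22.1 to 1270 ± 318 (adjusted p = 2.71e-05), its partner chain ITGB2 had a log2 fold change of 1.04 (adjusted p = 3.42e-05) and CD93 one of 1.75 (adjusted p = 1.45e-04). ITGAM, the alternative partner of ITGB2, fell from 187 ± 0.385 to 11.02 ± 2.95 normalized counts (log2 fold change −4.06, SE 0.190, adjusted p = 1.98e-06), with no overlap between libraries. C5AR1, the receptor for the C5 fragment C5a, fell from 161.5 ± 16.2 to 38.9 ± 13.4 (log2 fold change −2.05, SE 0.231, adjusted p = 1.32e-04). ITGAM, like ITGAX, is best known from leukocytes, of whose markers some were at no more than 3 counts and others were tested, as given above. Of the 7 genes of the terminal pathway only C5 was tested, at 65.2 ± 10.3 and 46.6 ± 6.95 normalized counts (SD, n = 3 each; adjusted p = 0.0716). C4A and C4B, which are near-identical, could not be told apart with certainty, and neither was called.

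**Figure D4:**
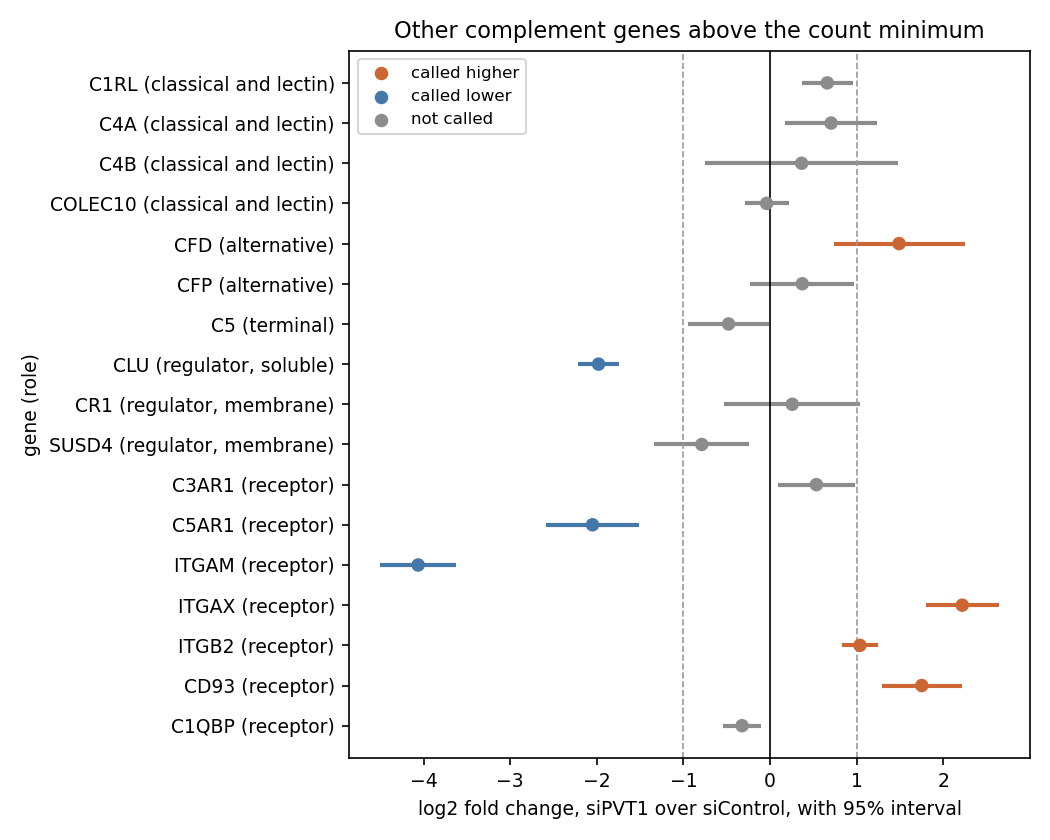
Log2 fold changes (siPVT1 over siControl) with 95% intervals of the other complement genes above the count minimum that are reported here, grouped by role, with dashed lines at a 2-fold change either way. The 4 genes shown as called higher lie between 1.04 and 2.22 and the 3 called lower between −4.06 and −1.98.

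A list of 27 transcription factors, cytokines and receptors known to act on complement genes was also followed. It too was chosen with earlier results of these data known. Of these, 23 were tested, 8 were called higher and 0 lower, against 11.8% and 9.64% of all genes tested. Their median log2 fold change was 0.43. By the adjusted p alone, 16 were higher and 2 lower, against 29.5% and 28.4% of all genes. All 4 tested cytokines rose. IL6 went from 593 ± 28.2 to 4466 ± 1109 normalized counts (log2 fold change 2.91, SE 0.172, adjusted p = 5.51e-06) and IL1B from 6451 ± 126 to 45144 ± 3272 (log2 fold change 2.81, SE 0.071, adjusted p = 2.52e-07). TNF had a log2 fold change of 1.30 (adjusted p = 9.40e-04) and IL1A one of 1.20 (adjusted p = 1.64e-06). The interferon ligands IFNB1, IFNG and IFNL1 and the cytokine OSM had at most 3 counts in every library. Among transcription factors CEBPD (log2 fold change 1.75, adjusted p = 9.38e-06) and IRF9 (1.30, adjusted p = 1.03e-05) were called higher. The receptors IFNGR2 (1.66, adjusted p = 8.16e-06) and OSMR (1.23, adjusted p = 1.64e-06) were called higher too. The genes lower by the adjusted p alone were the receptors IL6ST (−0.27, adjusted p = 0.0137) and TLR3 (−0.79, adjusted p = 0.0014). Whether any of these had a part in the levels of the complement genes was not tested.

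**Figure D5:**
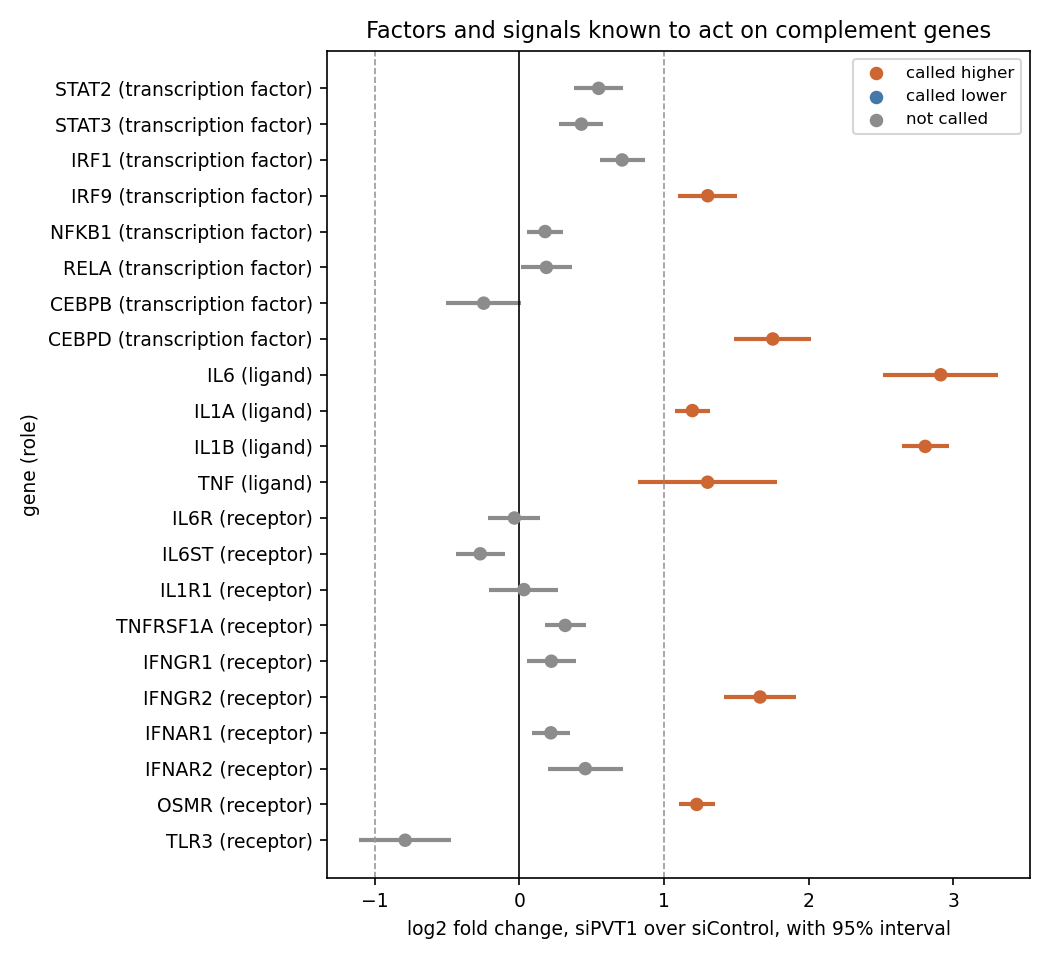
Log2 fold changes (siPVT1 over siControl) with 95% intervals of the reported transcription factors, ligands and receptors known to act on complement genes, with dashed lines at a 2-fold change either way. All 4 ligands lie to the right of 1, with IL6 at 2.91, and no gene shown was called lower.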

How the data were processed

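RNA from 3 siControl and 3 siPVT1 libraries was compared. Per the submitters' processing notes and the methods, the authors used bcl2fastq 2.20.0, STAR 2.7.3a and Salmon 0.14.1 with GRCh38.p13 and deposited 1 table of estimated counts by gene symbol (whole, not normalized), which was used as given. Salmon shares reads among similar transcripts by estimation, and the strand setting is not given in the sources used here. The paper counted on an earlier GENCODE release than the one used here for overlaps. Whether genes of the later release were also in the counting, perhaps under other names, was not checked. Besides the overlap given for CFB, genes annotated without a symbol in the later release share exonic bases on the same strand with other members. These were 1357 of 11577 bases for C3, 1562 of 5319 for CFI, 629 of 10557 for CD59 and 229 of 8295 for C1S. All per-sample columns were mapped to a sample by the labels.

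Counts were scaled by TMM and compared with the quasi-likelihood test of edgeR 4.0.16 under R 4.3.3. A minimum of 5 normalized counts in 3 or more libraries left 19008 genes, with Benjamini-Hochberg adjustment over all of them. Genes were called at an adjusted p under 0.05 and a log2 fold change of at least 1 in size. Standard errors are the log2 fold change, in size, divided by the square root of F, and intervals are 95%. Ratios of 2 genes within a library were compared by two-sided exact permutation tests. The edgeR and DESeq2 fits were tested on simulated data, with a criterion for passing that was changed after the first run missed it. The changed criterion judged recovery only among genes with higher counts. It therefore does not cover genes at low counts, such as SERPING1 and CFI. Coordinates, exon overlaps and transcript lengths came from GENCODE v44 (GRCh38) and promoters from RefSeq (GRCh38.p14).

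All 9 complement genes are named, with PVT1, the called genes of the other lists up to 10 each by p-value, and the 3 genes most correlated with C3. Others (C1RL, C2, C4A, C4B, C5, IL6ST, TLR3, MIR29B2CHG, marker genes) were named after their values were seen. Some genes counted in these lists are not reported here by name. The genes and lists were chosen with earlier results of these data known. Alternatives were DESeq2 1.42.0, edgeR with its size factors, total-count scaling, filterByExpr or no filter, a replicate block, leaving out each library, testing against a 2-fold change, and calling by the adjusted p only. Replicate numbers were not taken as pairs, as libraries of the same number were only weakly correlated.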

Additional observations from a re-analysis of the deposited data

How the results depend on the processing

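C1R, C3, CFB and CD46 stayed higher and past both thresholds under every alternative run, and CD59 stayed higher with an adjusted p under 0.05 in all but the test against a 2-fold change. The number of complement genes called higher was 4 to 6 and of those called lower 0 throughout. Of 207 fold changes and counts recomputed under an alternative, 188 were taken as the same, which for a fold change means its direction and side of the threshold and for a count a value within 1.5 times the first.

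SERPING1 lost its call in DESeq2 (log2 fold change 1.194), with DESeq2's size factors in edgeR (1.183), with total-count scaling (1.046) and in the test against a 2-fold change (1.198, adjusted p = 0.738), and with 1 library left out it ranged from 0.9456 to 1.707. CFI, at 0 to 17 counts, changed sign with DESeq2's size factors (−0.002951), total-count scaling (−0.1406) and the replicate block (−0.02141), and ranged from −0.4134 without siControl replicate 3 to 0.622 without siPVT1 replicate 3. It fell below the count minimum without siControl replicate 2, siPVT1 replicate 1 or siPVT1 replicate 2, which gave no value. The adjusted p alone added CD59 (0.6958). The causes of these shifts were not tested.

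Other complement genes called higher numbered 2 in the test against a 2-fold change and 8 by the adjusted p alone, which also gave 5 lower. By that rule 16 factors and signals were higher and 2 lower. Over all genes, 2248 higher and 1833 lower calls became 1184 and 792 in the test against a 2-fold change and 5612 and 5395 by the adjusted p alone. Total-count scaling moved the all-gene median of the log2 fold change from 0.001 to −0.148 and the calls to 1835 higher and 2355 lower. C1S then stood at 0.027 and CD55 at 0.074, both above that median.

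Deviations of same-numbered libraries of the groups correlated at −0.037 to 0.029, so the numbers were not taken as pairs. Only 2 of 6 libraries correlated best with their own number, both of them replicate 2. Whether the replicate 2 libraries of the groups were linked was not tested. With the replicate block 5 complement genes were called higher and 0 lower, and 2158 and 1766 genes in all.

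CFI and SERPING1 had 22 counts or fewer in every library.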
